A study of Rattus norvegicus with 12 samples.

Results

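The chemokine system of the rat lung was taken as every row of the deposited expression table whose gene symbol has the form Ccl, Cxcl, Ccr or Cxcr plus a number, together with Cx3cl1, Cx3cr1, Xcl1, Xcr1 and Ackr1 to Ackr4. Of 19230 rows in the table, 55 have such a symbol, and 53 reached a mean of at least 1 signal unit over the 12 libraries; Ccl25 and Ccl26 did not. The 53 genes are 32 ligands (12 CXC, 18 CC, and Cx3cl1 and Xcl1) and 21 receptors (17 typical, 4 atypical). Cxcr2 shares a merged row with the neighbouring gene Rufy4, so its value cannot be given alone. RNA was sequenced from 4 groups of 3 samples, all from Sprague-Dawley rats: wild-type total lung in normoxia (day 0), wild-type total lung after 4 days of Sugen-Hypoxia (SuHx), Ahr-KO total lung after 4 days of SuHx, and endothelial cells (ECs) of wild-type normoxic rats, which the sample labels place at day 4 and the column names at day 0. SuHx joins a VEGF receptor inhibitor with low oxygen and is used to bring on pulmonary arterial hypertension, and AhR, the product of Ahr, is a ligand-activated transcription factor. No Ahr-KO rats in normoxia and no rats given either component of SuHx alone were among the groups, so the genotype was compared only under SuHx, and the effects of the inhibitor and of hypoxia cannot be told apart. The labels do not say how the knockout was made, whether samples came from separate animals or how the ECs were isolated, and p-values therefore measure the spread between these samples, which may be technical.

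Chemokines are small secreted proteins that direct the movement of leukocytes and other cells along a gradient. The CXC and CC families are named for the spacing of their first cysteines, and their typical receptors signal through Gi proteins. Atypical receptors (Ackr) bind chemokines without that signalling and mostly internalise them, which shapes the gradient. In the lung, chemokines are made by epithelium, fibroblasts, endothelium and macrophages, and they are known for recruiting monocytes, neutrophils and lymphocytes in inflammation and around remodelled vessels.

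Promoter windows are shown for the genes on which the results below turn: the pair that differed by genotype (Ackr3 and Ccl21), the Ackr3 ligand Cxcl12, and the ligands with the largest SuHx increases (Cxcl10 and Cxcl11). The windows come from RefSeq on the GRCr8 build, in which 39 of the 53 genes were matched, and they run 5′ to 3′ on the gene's strand over the 250 bases before the start. The letter patterns searched, on both strands, were GCGTG, the core of the AhR response element, then GAAA followed by any 2 letters and GAAA again, the interferon-stimulated response element, and GGGA followed by any 4 letters and CC, an NF-kappaB pattern. The capitals mark the matches, and the coordinates in order are chr9:98247104-98247299 on the plus strand for Ackr3 (shown to 55 bases before the start), chr4:152060531-152060780 on the plus strand for Cxcl12, chr14:15988816-15989065 and chr14:15973478-15973727, both on the plus strand, for Cxcl10 and Cxcl11, and chr5:61777516-61777765 on the minus strand for Ccl21.
Ackr3: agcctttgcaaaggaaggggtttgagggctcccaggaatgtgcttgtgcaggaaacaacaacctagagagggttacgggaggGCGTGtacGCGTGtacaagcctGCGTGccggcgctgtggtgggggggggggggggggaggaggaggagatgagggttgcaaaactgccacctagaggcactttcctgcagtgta
Cxcl12: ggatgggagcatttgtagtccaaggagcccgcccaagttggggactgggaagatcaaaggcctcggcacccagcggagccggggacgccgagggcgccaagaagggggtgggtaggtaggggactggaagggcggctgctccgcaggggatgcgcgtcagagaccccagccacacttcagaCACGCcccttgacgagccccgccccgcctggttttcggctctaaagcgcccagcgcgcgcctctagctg
Cxcl10: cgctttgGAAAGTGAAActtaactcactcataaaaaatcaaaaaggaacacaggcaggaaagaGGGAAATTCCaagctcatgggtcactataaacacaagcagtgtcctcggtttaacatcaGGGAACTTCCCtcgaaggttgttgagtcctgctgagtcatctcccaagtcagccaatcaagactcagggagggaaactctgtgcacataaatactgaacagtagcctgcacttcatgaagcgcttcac
Cxcl11: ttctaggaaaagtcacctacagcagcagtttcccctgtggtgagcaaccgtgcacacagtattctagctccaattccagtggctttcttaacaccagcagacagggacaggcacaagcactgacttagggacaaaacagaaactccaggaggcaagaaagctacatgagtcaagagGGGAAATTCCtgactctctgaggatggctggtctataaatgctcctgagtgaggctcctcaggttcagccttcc
Ccl21: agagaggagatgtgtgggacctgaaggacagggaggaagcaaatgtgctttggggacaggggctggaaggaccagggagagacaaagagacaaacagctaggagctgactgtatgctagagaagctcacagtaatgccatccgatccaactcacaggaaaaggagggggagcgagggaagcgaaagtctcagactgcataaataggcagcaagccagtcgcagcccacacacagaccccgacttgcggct
The Ackr3 window held GCGTG 3 times, at 168, 160 and 146 bases before the start. At least 1 match stood in 25.89% of all 33469 promoter windows and in 7 of the 39 matched genes, and at least 3 matches in 2.576% of all windows and in 2 of the 39, Ackr3 and Cxcl14. The Cxcl12 window held 1 match, on the opposite strand. Cxcl10 had the interferon-type pattern 243 bases before the start, a pattern present in 3.406% of all windows and 2 of the 39 genes (Cxcl10 and Ccl19), and it had NF-kappaB patterns at 187 and 128 bases before the start, the second matched on both strands in overlap. Cxcl11 had 1 NF-kappaB pattern, at 74 bases; that pattern stood in 16.43% of all windows and in 16 of the 39 genes. Ccl21 had no match to any of the patterns in this window. These are matches of letters and were not tested as binding sites.

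Values below are signal, an estimated read count per gene divided by 1 factor per library, so they compare a gene between libraries and not genes with each other. Libraries held 20.04 M to 28.59 M reads by the smallest step of their values, and 1 read was worth 0.7447 to 1.248 signal units. Libraries are named by the number in their column, 0 to 2. Ahr mRNA was not lower in the Ahr-KO lungs (2515, 2523 and 1800.0) than in wild-type SuHx lungs (1996, 3073 and 1739.6), while Cyp1a1, the classic AhR target, was at 3.87 to 5.32 there against 65459 to 75070 in wild-type SuHx and 39.2 to 476 in normoxia. Cardiac muscle markers stood apart in normoxia library 2 and Ahr-KO library 2: their summed signal ran from 843 to 12393 in normoxia, 2632 to 3494 in wild-type SuHx and 5768 to 26977 in Ahr-KO, and Myh6, a cardiac myosin heavy chain, was at 0 in all wild-type SuHx libraries and at 673 to 4900 in Ahr-KO. The EC libraries carried endothelial markers at a summed 284805 to 351142 against 98584 to 103257 in normoxic lung, with 12 of 12 markers higher, but also the leukocyte gene Ptprc at 8628 to 13428 against 3986 to 4644.

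In wild-type lung after SuHx, 9 of 32 chemokine ligands rose, led by Cxcl10, Cxcl11 and Ccl2, and 23 were not called. With limma on log2(signal + 1) and a Benjamini-Hochberg adjusted p under 0.05 over all 15234 genes tested as the rule for a call, 11 of the 53 genes rose and 2 fell, which is 24.5% against 13.5% of all genes called (7.08% higher and 6.39% lower). Of the 32 ligands, 9 rose and none fell by this test, with 12 ligands at an unadjusted p under 0.05 in either direction: 4 of 12 CXC ligands (Cxcl3, Cxcl10, Cxcl11 and Cxcl12) and 5 of 18 CC ligands (Ccl2, Ccl7, Ccl9, Ccl17 and Ccl22). Among receptors, Ccr9 and Ackr3 rose and Cxcr4 and Ackr4 fell. All SuHx libraries lay above all normoxic ones for 12 of the 53 genes and below for 6, where 17.0% and 19.7% of all genes did, and 18 of the 53 were at an unadjusted p under 0.05, where 31.7% of all genes were. The median log2 change was 0.02 over the 53 genes and -0.04 over all genes. Every fold below is a ratio of geometric means of signal + 1 with its log2 value ± SE from limma (n = 3 libraries a group).

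**Figure D1:**
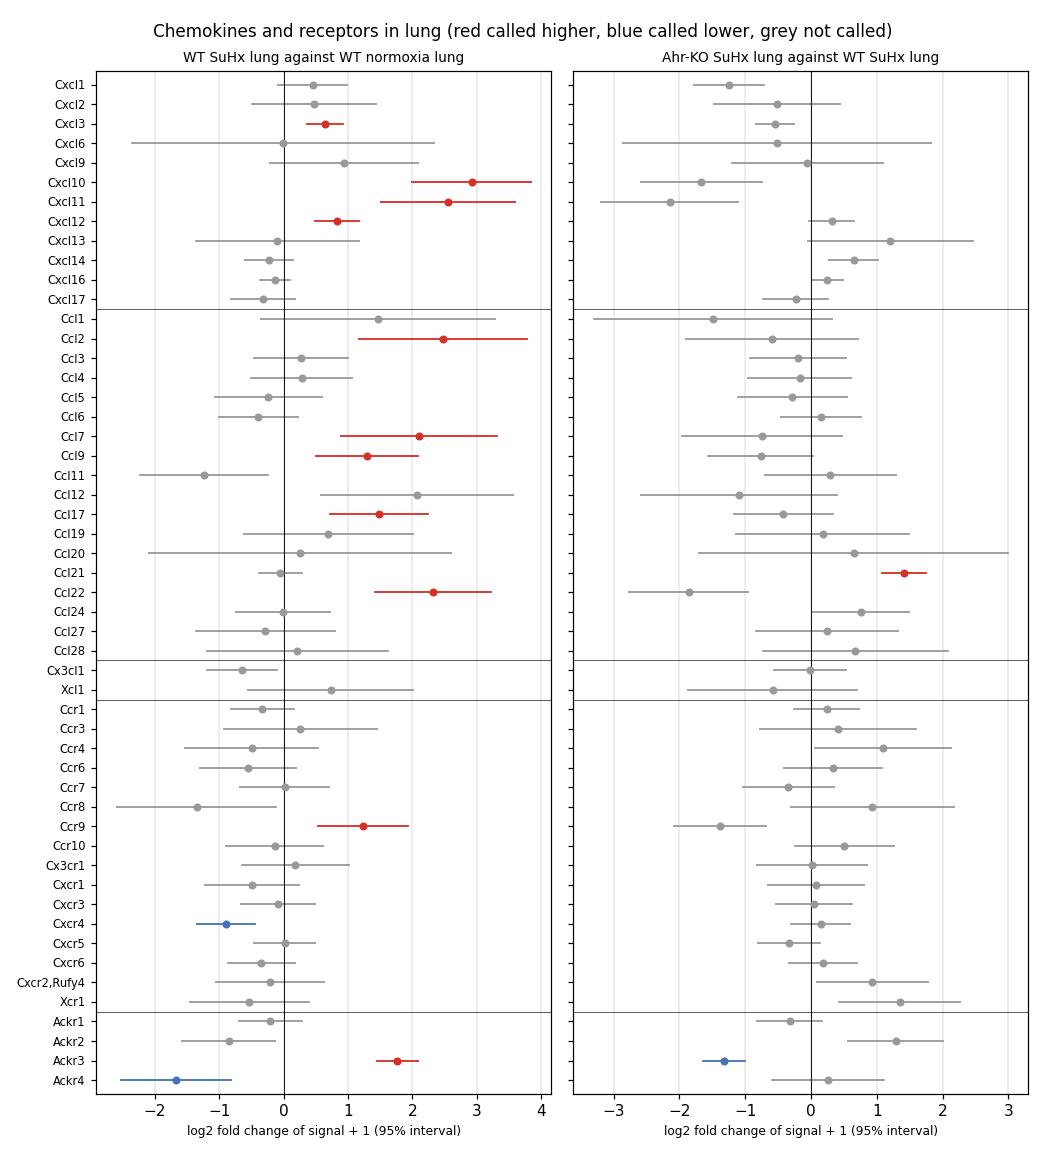
Log2 fold change of signal + 1 with its 95% interval for 52 of the 53 chemokine genes, in wild-type SuHx against normoxic lung and in Ahr-KO against wild-type SuHx lung (3 libraries a group). Red points were called higher, blue points called lower and grey points not called; the first comparison has 11 red and 2 blue points, the second 1 of each.

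The interferon-inducible ligands of Cxcr3, the receptor of activated T cells, had the largest increases. Cxcl10 was at 55.7, 30.7 and 33 in normoxia and at 248, 395 and 267 in wild-type SuHx. Every SuHx library was above every normoxic one, a 7.56-fold increase (log2 2.92 ± 0.41, adjusted p = 0.00242). Cxcl11 was low in normoxia at 2.39, 6.82 and 3.07 and reached 17, 41.3 and 27.6 under SuHx, 5.87-fold higher (2.55 ± 0.46, adjusted p = 0.00821). Cxcl9, the third ligand of this receptor and the genomic neighbour of Cxcl10, did not pass: it was at 97.1, 93.8 and 79.8 in normoxia and 159.9, 376 and 85.6 under SuHx (log2 0.94 ± 0.51, adjusted p = 0.235), and the groups overlapped. Cxcr3 itself was at 55.4 to 85.1 and 58.9 to 65.5.

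Cxcl12 and Cxcl3 also rose, each by less than 2-fold. Cxcl12, the homeostatic ligand of Cxcr4 and Ackr3 made by stromal cells, was at 3233, 2411 and 3909 in normoxia and at 5776, 5454 and 5477 under SuHx. The SuHx libraries lay close together and above all normoxic ones, 1.78-fold higher (log2 0.83 ± 0.15, adjusted p = 0.00889). Mesenchymal markers summed to 84142 to 109766 in normoxia and 132990 to 179525 under SuHx. Of the 10, 4 were called higher (Cnn1, Col1a1, Acta2 and Lum) and none was at 0. Col3a1 made up most of these sums, at 62867, 52409 and 51266 and then 99398, 96057 and 71258, and was not called (adjusted p = 0.079). Dcn was lower in every SuHx library without a call (log2 -0.60 ± 0.30). Pdgfra, Col1a2 and the merged rows of Pdgfrb and Myh11 overlapped. The part of these markers in the Cxcl12 value was not tested. Cxcl3, a neutrophil-attracting ligand of Cxcr2, was at 14826, 13650.5 and 16021 in normoxia and 22448, 21008 and 26208 under SuHx, 1.56-fold higher (0.64 ± 0.13, adjusted p = 0.0124). Its relatives were not called: Cxcl1 was at 262 to 439 and then 368 to 506 (adjusted p = 0.221), and Cxcl2 stayed between 8.44 and 22.7. The neutrophil markers summed to 2644 to 5461 in normoxia and 9817 to 14638 under SuHx, with Il1r2 and Lcn2 called higher and the other 12 of 14 not called. Lcn2 alone was the largest part of the SuHx sum, at 1853, 1357 and 1801 in normoxia and 6534, 9548 and 7463 under SuHx.

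Of the 5 CC ligands that rose, Ccl2 and Ccl7 act on monocytes, Ccl17 and Ccl22 on Ccr4-bearing T cells, and Ccl9 on Ccr1. Ccl2, the main monocyte attractant, was at 83.5, 23 and 117 in normoxia and at 356, 465 and 250.2 under SuHx, 5.58-fold higher (log2 2.48 ± 0.58, adjusted p = 0.024). Its neighbour Ccl7, which acts on the same cells, was at 32.6, 8.52 and 47.5 and then at 103, 109 and 106, 4.30-fold higher (2.10 ± 0.54, adjusted p = 0.0335). In normoxia library 1 both were lowest, and without it the increases were 3.47-fold for Ccl2 and 2.66-fold for Ccl7, still called (adjusted p = 0.0432 and 0.0435). The call of Ccl2 was lost without normoxia library 0 or wild-type SuHx library 0 or 1 (adjusted p = 0.0512, 0.0743 and 0.0539), and that of Ccl7 in 7 of 16 alternative fits (all those run except the replicate block and the fold minimum), with adjusted p up to 0.0917, including without normoxia library 0, any 1 wild-type SuHx library or Ahr-KO library 1 (0.0652, 0.0898, 0.0611, 0.0917 and 0.0529). Ccl12, of the same cluster, was at 27, 3.41 and 18.4 and then 52, 72.6 and 44.7, with no overlap, and missed the threshold (2.07 ± 0.66, adjusted p = 0.0676).

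Ccl22 and Ccl17, the ligands of Ccr4, rose together. Ccl22 was at 18.3, 13.6 and 16.9 in normoxia and at 69.1, 91.8 and 95.3 under SuHx, 4.99-fold higher (log2 2.32 ± 0.40, adjusted p = 0.00681). Ccl17 was at 20.7, 14.5 and 25.3 and then at 40.7, 60.4 and 74.5, 2.80-fold higher (1.48 ± 0.34, adjusted p = 0.0215). Neither set of libraries overlapped, though the Ccl17 call was lost without normoxia library 0 or 1 or wild-type SuHx library 2 (adjusted p = 0.0622, 0.0677 and 0.0768). Ccr4 was at 6.14 to 10.2 in normoxia and 3.78 to 8.41 under SuHx and was not called. Cx3cl1, fractalkine, lies between Ccl17 and Ccl22 in the RefSeq gene order and was not called: it was at 1312, 626 and 811 and then at 601, 552 and 521 (-0.65 ± 0.24, adjusted p = 0.104), though it was called lower without normoxia library 1 (-0.89, adjusted p = 0.0456).

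**Figure D2:**
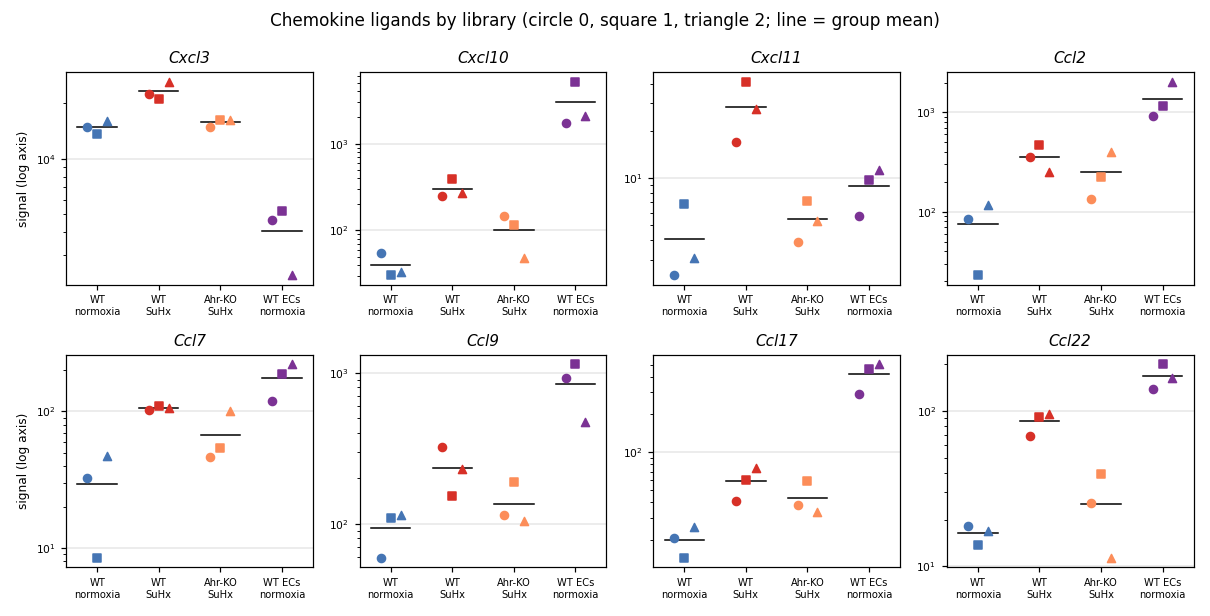
Signal (log axis) of 8 chemokine ligands in each library of the 4 groups; circles, squares and triangles are libraries 0, 1 and 2, and the line is the group mean. The wild-type SuHx libraries lie above the normoxic lung libraries in all 8 panels, and the Ahr-KO libraries of Cxcl3, Cxcl10, Cxcl11, Ccl7 and Ccl22 lie below all wild-type SuHx ones.

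Ccl9, a macrophage product that acts on Ccr1, was at 59.7, 109 and 114 in normoxia and at 321, 152 and 229 under SuHx, 2.46-fold higher (log2 1.30 ± 0.35, adjusted p = 0.0411). That call was the least stable of the 13, lost in 9 of 16 alternative fits with adjusted p up to 0.133, including without normoxia library 0 or 1, wild-type SuHx library 0 or 2 or Ahr-KO library 0 (0.132, 0.0681, 0.133, 0.109 and 0.0584). The CC ligands below were not called. Ccl6, which macrophages make in quantity, was at 5929, 13323 and 6077 in normoxia, with library 1 high, and at 5439 to 6795 under SuHx. Ccl5, a T cell and NK cell product, was at 819, 782 and 809 and then 626, 778 and 648. Ccl21, the ligand of Ccr7 made by lymphatic endothelium, was at 2213, 2924 and 2380.4 and then 2500.1, 2515 and 2215, a log2 change of -0.05 ± 0.15 (adjusted p = 0.848). The eosinophil attractant Ccl11 was at 384 to 640.4 and then 149.9 to 281, with no overlap but without a call (-1.23 ± 0.44, adjusted p = 0.093); it was called lower without Ahr-KO library 2, which enters the spread (adjusted p = 0.0206), and without both libraries high in cardiac markers (0.0308). The macrophage and monocyte markers summed to 328899 to 480769 in normoxia and 204212 to 257007 under SuHx, and C1qa, C1qb and C1qc were the 3 of 14 called, all higher. Most of these sums was Lyz2, which was not called. It was at 310369, 459188 and 311153 in normoxia and 234748, 198326 and 180333 under SuHx, so the lower sum reflects this gene and not the list. In these tissue libraries fewer cells of a type and less RNA per cell cannot be told apart.

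Receptors changed in both directions. Ackr3, the atypical receptor that takes up Cxcl12 and Cxcl11, was at 2143, 2244 and 3075 in normoxia and at 7978, 8458 and 8631 under SuHx. The increase was 3.40-fold (log2 1.77 ± 0.14, adjusted p = 0.000283), was called in all 16 alternative fits and had the smallest adjusted p of the 53 genes in this comparison. Cxcr4, the signalling receptor of Cxcl12, moved the other way: it was at 1963, 1367 and 2357 in normoxia and at 969, 866 and 1184 under SuHx, 1.85-fold lower (-0.89 ± 0.20, adjusted p = 0.0202). Ackr4, which takes up Ccl21 and Ccl19, fell from 423, 1219.7 and 429 to 170.3, 244 and 162, 3.19-fold (-1.67 ± 0.38, adjusted p = 0.0212). Normoxia library 1 was far above the other normoxic ones for Ackr4 and enlarges this fold. The Cxcr4 call was lost without normoxia library 0 or wild-type SuHx library 0 (adjusted p = 0.0732 and 0.0694), and the Ackr4 call without wild-type SuHx library 0 or 2 (0.0733 and 0.073). Ccr9, the receptor of gut-homing lymphocytes, was at 23.9, 21.3 and 29.1 and then at 62.4, 45.1 and 73, 2.35-fold higher (1.23 ± 0.31, adjusted p = 0.0314); the call was lost without normoxia library 0 or 1 or wild-type SuHx library 0 or 2 (0.0943, 0.0912, 0.0988 and 0.105).

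Other receptors were not called. Ccr1, which binds Ccl9, was at 327, 378 and 403 and then 336, 333 and 223. Ccr7, the receptor of Ccl21 on dendritic cells and naive T cells, was at 276, 211 and 502 and then 296, 258 and 399. Cx3cr1, the fractalkine receptor of patrolling monocytes, was at 386, 216 and 765 and then 463, 523 and 389. Ackr1, a chemokine-binding protein of venules and red cells, was at 98.6, 95.5 and 123 and then 81.3, 85.6 and 109, and was not called, while all 9 erythroid markers rose, from a summed 784 to 1417 to 4710 to 7906. In all, 15 of 17 typical receptors and 2 of 4 atypical receptors were not called. The endothelial markers summed to 98584 to 103257 in normoxia and 87566 to 91755 under SuHx, with 2 of 12 called higher and 2 lower and none at 0, beside the Ackr3 and Cxcr4 values; their part in these was not tested.

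Within SuHx, the Ahr-KO lungs differed from wild-type in Ccl21 and Ackr3. These were 2 of the 53 genes (3.77%) against 0.499% of all genes called (0.197% higher, 0.302% lower), and 15 of the 53 were at an unadjusted p under 0.05, against 13.6% of all genes. Ccl21 was at 2500.1, 2515 and 2215 in wild-type SuHx and at 5554, 5948 and 7907 in Ahr-KO. All Ahr-KO libraries were above all others of the lung, 2.66-fold over wild-type SuHx (log2 1.41 ± 0.15, adjusted p = 0.00348). Ackr3 was at 7978, 8458 and 8631 and then at 3224, 3805 and 3048, 2.50-fold lower in Ahr-KO (-1.32 ± 0.14, adjusted p = 0.00368). Both were called in all 16 alternative fits, with adjusted p up to 0.0242 for Ccl21 and 0.0264 for Ackr3.

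Marker values are given beside these 2 genes. The lymphatic endothelial markers summed to 14577 to 15617 in wild-type SuHx and 13166 to 15018 in Ahr-KO with 0 of 6 called by limma (1 at an unadjusted p under 0.05) and none at 0. Most of these sums was Pdpn, at 10426, 8974 and 10137 in wild-type SuHx and 9169, 8700 and 8180 in Ahr-KO. Pdpn was 3.54-fold lower in ECs than in normoxic lung. Prox1, the lymphatic transcription factor, was at 54.9, 96.3 and 41.7 and then 121, 132 and 134 (adjusted p = 0.206), and the part of lymphatic cells in the Ccl21 value was not tested. The endothelial markers summed to 87566 to 91755 and 78793 to 97491, with 0 of 12 called and 0 at an unadjusted p under 0.05. Of 14 macrophage and monocyte markers, C1qc was called, lower in Ahr-KO (log2 -0.97 ± 0.17, adjusted p = 0.0458). C1qa and C1qb also lay below wild-type SuHx in every Ahr-KO library, while Cd163, Adgre1, Fcgr1a and Mrc1 lay above. Cd163 was at 333, 465 and 655 in Ahr-KO against 95.5, 71.1 and 140 (2.23 ± 0.45, adjusted p = 0.0759). The part of these markers in the Ccl21 and Ackr3 values was not tested. Of the 10 cardiac markers, whose sums did not overlap between the genotypes, 0 were called and 7 were at an unadjusted p under 0.05. Without the 2 libraries highest in cardiac markers, a choice made after seeing the data, the log2 difference was 1.26 ± 0.13 for Ccl21 (adjusted p = 0.0109) and -1.25 ± 0.10 for Ackr3 (0.00267). Ahr-KO libraries 0 and 1, kept in that fit, still held Myh6 at 1228 and 673, against 0 in wild-type SuHx. The fit therefore kept a cardiac marker difference between genotypes, whose part in these values was not tested. In that fit the merged row of Cxcr2 and Rufy4 was called too (1.37 ± 0.17, adjusted p = 0.0193): Ahr-KO library 2 was at 194 beside 485 and 472 in the other two, against 162 to 223 in wild-type SuHx.

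**Figure D3:**
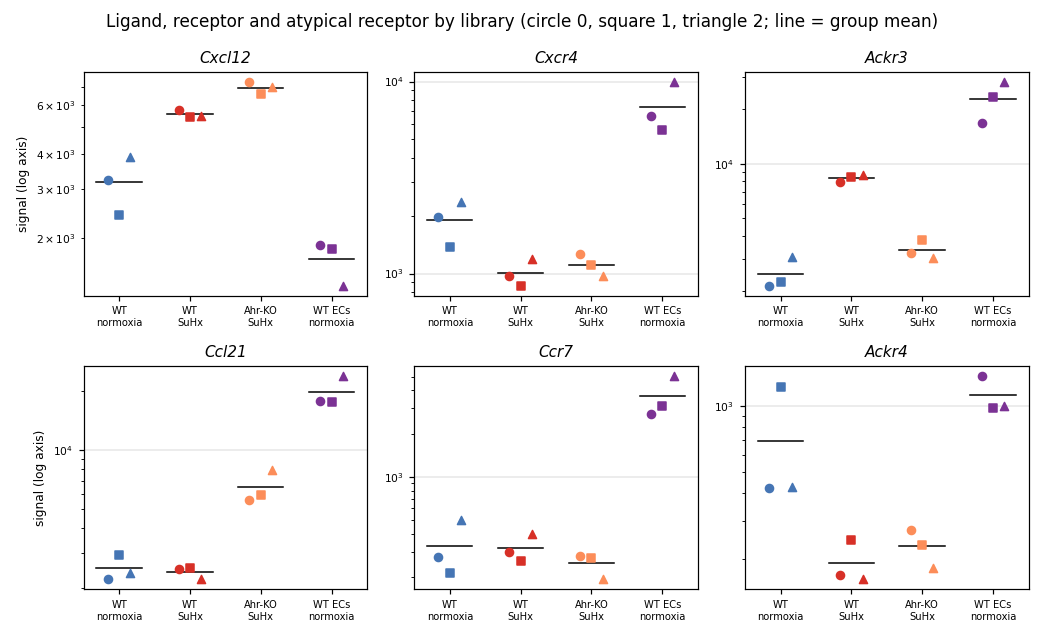
Signal (log axis) of Cxcl12 and its receptors Cxcr4 and Ackr3, and of Ccl21 with Ccr7 and Ackr4, in each library of the 4 groups; circles, squares and triangles are libraries 0, 1 and 2, and the line is the group mean. The 3 wild-type SuHx libraries of Ackr3 (7978 to 8631) lie above both other lung groups, and the 3 Ahr-KO libraries of Ccl21 (5554 to 7907) lie above both other lung groups.

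Several ligands that rose with SuHx in wild-type were lower in every Ahr-KO library without passing the test. All Ahr-KO libraries lay below all wild-type SuHx ones for 8 of the 53 genes, where 10.2% of all genes did, and above for 7, where 11.7% did. The 8 were Cxcl1, Cxcl3, Cxcl10, Cxcl11, Ccl7, Ccl22, Ackr3 and Ccr9. The same wild-type SuHx libraries enter this comparison and that with normoxia. Ligands picked for being high in these libraries lie above other groups more readily, so their lower Ahr-KO values are not independent of that choice. Cxcl11 was at 3.87, 7.08 and 5.32 in Ahr-KO against 17, 41.3 and 27.6 (log2 -2.15 ± 0.46, adjusted p = 0.0921). Ccl22 was at 25.5, 39 and 11.4 against 69.1, 91.8 and 95.3 (-1.86 ± 0.40, adjusted p = 0.0972). Cxcl10 was at 146, 114 and 47.9 against 248, 395 and 267 (-1.67 ± 0.41, adjusted p = 0.139). These differences were larger in size than that of Ackr3 but had wider errors, and the Ahr-KO values of Cxcl11 rest on few reads.

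Of the neutrophil-attracting ligands, none was called between genotypes, and Cxcl2 and Cxcl6 overlapped. Cxcl1 was at 143, 213 and 221 in Ahr-KO against 506, 368 and 486 in wild-type SuHx (log2 -1.25 ± 0.24, adjusted p = 0.0635), and it passed under quantile normalization alone (adjusted p = 0.0429). Cxcl3 was at 14949, 16265 and 16292, within the span of the normoxic libraries or just above it, against 21008 to 26208 (-0.55 ± 0.13, adjusted p = 0.124). Beside them the neutrophil markers summed to 9550 to 14042 in Ahr-KO and 9817 to 14638 in wild-type SuHx, and Il1r2, the decoy receptor of interleukin-1, was the 1 of 14 called (lower in Ahr-KO, log2 -1.46 ± 0.22). Within these sums Lcn2 was at 4121, 7165 and 4785 against 6534, 9548 and 7463. S100a9 was at 2885, 2789 and 1961 against 1079, 1425 and 2773, and both overlapped. Ccr9 was at 24.8, 28.3 and 15.2 against 45.1 to 73 (-1.38 ± 0.31, adjusted p = 0.111).

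The monocyte ligands were highest within Ahr-KO in library 2. Ccl2 was at 134, 224 and 402 in Ahr-KO against 356, 465 and 250.2 in wild-type SuHx, with overlap, and Ccl7 at 46.4, 54 and 100.3 against 103, 109 and 106, without overlap by a narrow gap. The same library held Ccl20, a mucosal ligand of Ccr6, at 264 where the other 8 lung libraries were at 8.86 to 32.2, and Cxcl6 at 85.9 where they were at 5.11 to 54.1. Ccl17 was at 37.9, 59.3 and 33.4 and Ccl9 at 115, 189 and 104 in Ahr-KO, both overlapping wild-type SuHx.

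Of the 7 genes above in every Ahr-KO library, Ccl21 alone was called. Cxcl12 was at 7265, 6573 and 6986 against 5454 to 5776 (log2 0.32 ± 0.15, adjusted p = 0.394), and its Ahr-KO libraries were the highest of the lung. Cxcl14, an epithelial and fibroblast chemokine, was at 1597, 1341 and 1868 against 1251, 805 and 1035 (0.65 ± 0.17, adjusted p = 0.155). Ackr2, the scavenger of inflammatory CC ligands, was at 45.7, 69.1 and 60.8 against 32.2, 17.6 and 21.6 (1.29 ± 0.32, adjusted p = 0.145). Xcr1, the receptor of cross-presenting dendritic cells, was at 89.8, 112 and 59.3 against 24.6, 58.1 and 23.8 (1.35 ± 0.41, adjusted p = 0.212). The others were Ccl24 at 76.6 to 92.1 against 44.5 to 60.3, and Cxcl16 at 2390.0 to 2488 against 1787 to 2278. Cxcr4 and Ackr4, which fell with SuHx, had 95% intervals across 0 in this comparison: Cxcr4 was at 1262, 1113 and 967 (0.15 ± 0.20, adjusted p = 0.757) and Ackr4 at 272, 233 and 183 (0.26 ± 0.38, adjusted p = 0.782).

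Set against normoxic wild-type lung, Ahr-KO SuHx lung had 4 of the 53 genes called (7.55%), where 9.75% of all genes were called (5.95% higher, 3.8% lower), and 15 of the 53 were at an unadjusted p under 0.05, against 26.0% of all genes. This comparison mixes genotype with SuHx, which cannot be told apart here, and it shares its libraries with the comparisons above. Ccl21 was 2.57-fold higher (log2 1.36 ± 0.15, adjusted p = 0.000609) and Cxcl12 was 2.22-fold higher (1.15 ± 0.15, adjusted p = 0.00173). Ackr4 was 2.67-fold lower (-1.41 ± 0.38, adjusted p = 0.0471) and Cxcr4 1.67-fold lower (-0.74 ± 0.20, adjusted p = 0.048). Each of these last 2 calls was lost in 12 of 16 alternative fits, with adjusted p up to 0.137 for Ackr4 (without Ahr-KO library 2) and 0.207 for Cxcr4 (without both cardiac-high libraries). The Ackr4 call was lost without any 1 of the lung libraries except normoxia library 2, and the Cxcr4 call without any 1 except normoxia library 1 and wild-type SuHx library 2, with adjusted p of 0.0539 to 0.137 and 0.0567 to 0.145. Without normoxia library 1, the highest for Ackr4, the log2 difference of Ackr4 was -0.91 ± 0.23 (adjusted p = 0.0557). Of the 11 genes that rose in wild-type, Cxcl12 alone was called here. The 11 were picked by their calls against these same normoxic libraries, so this count does not measure a loss of response in Ahr-KO. Cxcl10 had log2 1.25 ± 0.41 (adjusted p = 0.0889), Cxcl11 0.40 ± 0.46 (0.622), Ccl2 1.89 ± 0.58 (0.073), Ccl22 0.46 ± 0.40 (0.506) and Ccl7 1.36 ± 0.54 (0.149). Ackr3 had 0.45 ± 0.14 (0.0841), Ccl17 1.06 ± 0.34 (0.0811), Ccl9 0.53 ± 0.35 (0.375), Ccr9 -0.15 ± 0.31 (0.8) and Cxcl3 0.10 ± 0.13 (0.676). Leaving out 1 library changed some of these calls. Ackr3 and Ccl2 were called without normoxia library 2 (log2 0.61, adjusted p = 0.0121, and 2.35, 0.0366), and Cxcl10 without Ahr-KO library 2 (1.72, 0.0158). Cxcl1 was called lower without normoxia library 2 (-0.95, adjusted p = 0.0439), and Cx3cl1 without normoxia library 1 (-0.90, 0.0487). Without both cardiac-high libraries, Ackr3 (0.68 ± 0.11, adjusted p = 0.0127), Cxcl10 (1.62 ± 0.34, 0.0314) and the merged row of Cxcr2 and Rufy4 (1.47 ± 0.19, 0.00495) were called higher. Prox1 and Reln, 2 of the 6 lymphatic markers, were higher in Ahr-KO than in normoxia and Lyve1, in a merged row, was lower, beside the Ccl21 value; their part in it was not tested.

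ECs and normoxic lung differed in most chemokine genes, a share close to that of all genes. Of 52 genes tested, 23 were higher and 8 lower in ECs than in normoxic lung, which is 59.6% against 56.2% of 15186 genes (26.1% higher, 30.1% lower). Ccl1 was below the minimum mean in these 6 libraries. All EC libraries lay above all lung ones for 25 of the 52 and below for 11 (30.4% and 35.1% of all genes), and 34 were at an unadjusted p under 0.05 (61.4% of all genes). Cxcl2 was at 11.9, 14.5 and 8.44 in lung and 3705, 4168 and 4104 in ECs, 323-fold higher. Cxcl1, its neighbour, was at 4052, 5544 and 6503, 16-fold higher, whereas Cxcl3 was at 4669, 5218 and 2333, 3.85-fold lower. Of the ligands of Cxcr3, Cxcl10 was at 1745, 5142 and 2091 (67.5-fold) and Cxcl9 at 725, 3474 and 1008 (15-fold, or 9.42-fold without EC library 1, the highest for both). Cxcl11, at 5.69, 9.64 and 11.2, was not called (adjusted p = 0.115). Of the inflammatory CC ligands, Ccl3 was 34.4-fold, Ccl2 20.9-fold, Ccl17 19.7-fold, Ccl4 12.6-fold, Ccl22 9.69-fold, Ccl9 8.68-fold and Ccl7 6.89-fold higher. Without lung library 1 the folds of Ccl2 and Ccl7 were 13-fold and 4.26-fold.

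**Figure D4:**
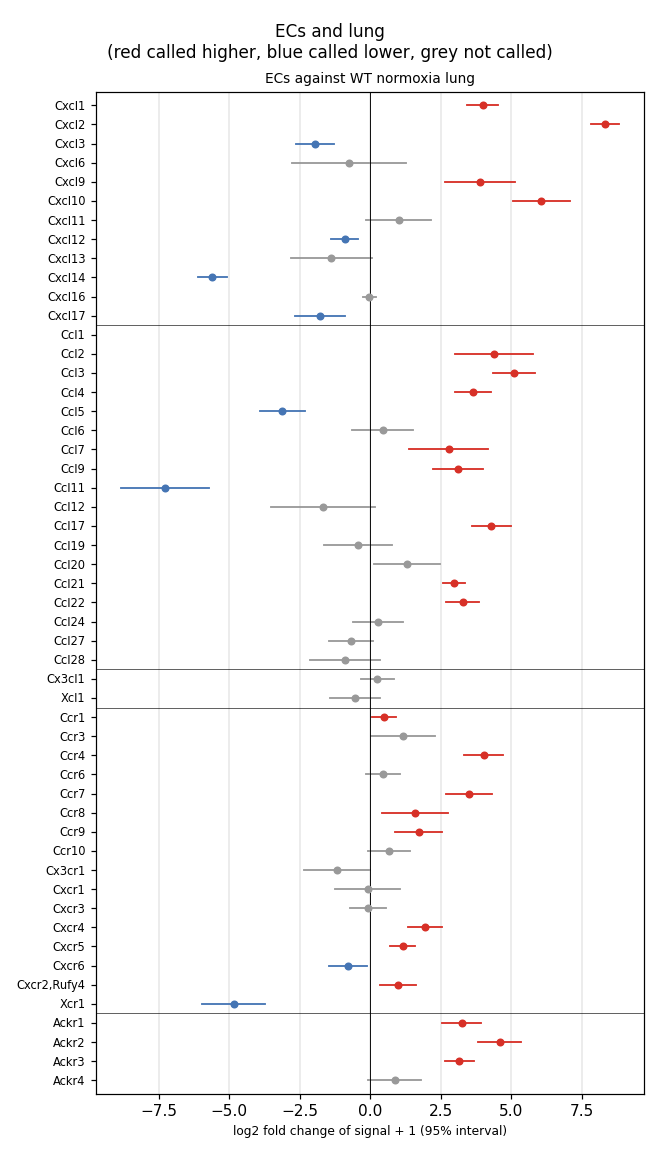
Log2 fold change of signal + 1 with its 95% interval in ECs against normoxic wild-type lung for 51 of the 52 chemokine genes tested (3 libraries a group; the line of Ccl1 is empty). Of the points, 23 are red (called higher), 8 blue (called lower) and the rest grey; Cxcl2 is farthest to the right and Ccl11 farthest to the left.

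Of the Cxcl12 and Ccl21 systems, the receptors Ackr3, Cxcr4 and Ccr7 and the ligand Ccl21 were higher in ECs than in normoxic lung. Ackr3 was at 16675, 23123 and 27928 (8.99-fold over lung), Cxcr4 at 6602, 5583 and 9904 (3.86-fold) and Ccl21 at 17729.6, 17550.1 and 23901 (7.84-fold). Ackr1 and Ackr2 were 9.49-fold and 24.1-fold higher, so 3 of the 4 atypical receptors were called higher; Ackr4, at 976 to 1374, was called only without lung normoxia library 1 (log2 1.37, adjusted p = 0.0013). Cxcl12 was lower, at 1879, 1827 and 1345 (1.88-fold). The lowest values relative to lung were those of Ccl11, Cxcl14 and Xcr1. Cxcl14 was at 27.3, 16.9 and 27.5 (48.9-fold lower). Ccl11 was at 0, 3.62 and 4.99 and Xcr1 at 1.14, 1.21 and 0, a few reads at most, so their folds hang on the pseudocount: they were 155-fold and 28.8-fold lower with 1 added, and 379-fold and 87-fold lower with 0.1 added. Without EC library 0, Ccl11 was 89.2-fold lower. Ccl5 was 8.69-fold, Cxcl17 3.43-fold and Cxcr6 1.74-fold lower. Lymphocyte and myeloid receptors were among those higher: Ccr4 16.2-fold, Ccr7 11.3-fold (2727, 3109 and 5056), Ccr9 3.28-fold, Ccr8 3.03-fold, Cxcr5 2.22-fold, the merged row of Cxcr2 and Rufy4 1.96-fold and Ccr1 1.41-fold. The Ccr1 call was lost without EC library 0 or 1 or any 1 of the lung libraries (adjusted p = 0.139, 0.152, 0.146, 0.0863 and 0.0633). Ccr8 was lost without EC library 0 or 1 or lung library 0 or 1 (0.0892, 0.099, 0.0898 and 0.0612), the merged Cxcr2 row without EC library 2 or lung library 0 or 1 (0.0552, 0.0653 and 0.0559), and Cxcr6 without EC library 0 or 1 or lung library 0 or 2 (0.128, 0.133, 0.119 and 0.127). Cx3cl1 was called higher without lung library 0 (0.0346) and Cx3cr1 lower without EC library 2 or lung library 1 (0.0394 and 0.0212).

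Leukocyte and other lineage markers differed between the same libraries. T and NK cell markers summed to 4571 to 7197 in normoxic lung and 6569 to 16134 in ECs. Of the 16, 6 were higher, among them Cd3e and Cd3d, and 5 lower, among them the cytotoxic genes Gzma (15.6-fold) and Nkg7 (7.26-fold). Monocyte and macrophage markers summed to 328899 to 480769 and 62600 to 199483 (3 of 14 higher, 6 lower), B and plasma cell markers to 1786 to 4037 and 8587 to 10188, neutrophil markers to 2644 to 5461 and 9573 to 11752 (10 of 14 higher), and dendritic cell markers to 2762 to 4161 and 7653 to 9412. Epithelial markers summed to 645092 to 845331 and 111821 to 259664, and mesenchymal markers to 84142 to 109766 and 30034 to 38748. Lymphatic markers summed to 35003 to 39362 in ECs, with 5 of 6 higher. Lyz2 made up most of the monocyte and macrophage sums. Neither Ptprc nor Cd3e (626 to 1555 in ECs), a T cell receptor subunit, was near 0 in ECs. The part of these cells in the EC chemokine values was not tested.

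Related genes were counted in 4 lists, to be read beside 7.08% of all genes called higher and 6.39% called lower with SuHx in wild-type. Among 9 tested chemoattractants outside the naming rule, 1 fell with SuHx in wild-type: Cmklr1, the chemerin receptor, was at 4266, 4412 and 4699 and then 3715, 3159 and 2743 (log2 -0.49 ± 0.13, adjusted p = 0.0403). Among 25 genes of chemokine receptor signalling, 1 fell: Arrb1, beta-arrestin-1, which takes receptors off the membrane, was at 11029, 11088 and 10393 and then 6366, 7124 and 5047 (-0.82 ± 0.17). Among 14 genes of chemokine processing and presentation, 2 rose and 2 fell. Mmp12, the macrophage elastase, which also cleaves chemokines, rose 2.66-fold from 33.4, 38.4 and 42.9 to 95.5, 100.2 and 113. Ext2, a heparan sulphate polymerase, rose 1.28-fold, Ndst1, a heparan sulphate sulphotransferase, fell 1.49-fold, and Dpp4, the protease that trims Cxcl12 and other chemokines, fell 1.41-fold. The medians of the 3 lists were 0.30, -0.03 and 0.02 on the log2 scale, beside -0.04 for all genes.

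Of 19 tested inducers and transcription factors of chemokine genes, none was called with SuHx in wild-type or between genotypes by limma, with 3 and 1 at an unadjusted p under 0.05; their median log2 change with SuHx was 0.04. Irf1, an interferon-induced factor, was at 1939 to 2463 in normoxia and 1443 to 2299 in the wild-type SuHx libraries. Ifng was at 0 to 2.39 and 1.49 to 3.82, the signal of a few reads. In the other 3 lists no gene was called between genotypes by limma either, with 2, 0 and 3 at an unadjusted p under 0.05. Against normoxia, Ahr-KO SuHx lung had Cd74, Arrb1, Dpp4 and Rela lower and Mmp12 higher. In ECs 19 of 21 inducers and factors were higher, among them Il6 (71.7-fold), Tnfaip3 (34.9-fold), Il1b (30.6-fold) and Irf1 (10.2-fold, library 1 highest, as for Cxcl10), and 16 of 25 signalling genes, among them Rgs1 (25.3-fold), where 26.1% of all genes were called higher.

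Calls were also read by genomic neighbourhood. In the RefSeq order Cxcl11, Cxcl10 and Cxcl9 adjoin, and the first 2 were called with SuHx. Ccl2, Ccl7, Ccl11, Ccl12 and Ccl1 adjoin, and Ccl2 and Ccl7 were called while Ccl11 had a log2 change of -1.23. Ccl5, Ccl9, Ccl6, Ccl3 and Ccl4 adjoin, and Ccl9 alone was called. Of the genes not yet described, Ccl19, Ccl27, Ccl28, Cxcl13, Cxcl17, Xcl1, Ccr3, Ccr6, Ccr8, Ccr10, Cxcr1 and Cxcr5 were not called in any lung comparison. Cxcl13, the B cell follicle chemokine, was at 85.9, 37.2 and 149.7 in Ahr-KO and 19.6 to 75.9 in the other lung libraries. Ccl6, Cxcl17, Cxcr1 and Ackr4 shared a high normoxia library 1: Cxcl17 was at 3737 there and at 2116 and 2038 in the other two, and Cxcr1 at 536 beside 237 and 248. For 6 genes (Ccl3, Ccl4, Ccl27, Ccr10, Cxcl16 and Cxcr5) the values were whole multiples of 1 read in only 1 to 4 of 12 libraries. They may hold reads shared with other genes, which also limits the EC folds of Ccl3, Ccl4 and Cxcr5.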

How the data were processed

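RNA-seq libraries of 9 lung and 3 endothelial cell samples (12 in all) were used, as 4 groups of 3. The authors deposited 1 table of signal per gene; its unit was read from the values, which are whole numbers of reads divided by a factor per library for 79.87% to 81.73% of values (within 0.05 of whole). Per the submitters' processing notes, the genome was rn6 and FastQC was run; the aligner, counter, strand setting and normalization were not given in the sources used here. Column names give a group and a number from 0, sample titles number from 1, so columns were tied to groups only.

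Signal was log2 transformed after adding 1, genes with a mean of at least 1 were kept, and limma 3.58.1 (R 4.3.3; empirical Bayes with trend, two-sided) was fitted to all 9 lung libraries, and to the 6 EC and normoxic lung libraries, with Benjamini-Hochberg adjustment over all genes. Depth was 20.57 M to 27.05 M signal units a library, with 1 unit near 1 read, so genes under about 5 units rest on few reads. On simulated data of the wild-type SuHx comparison (15234 genes), 60 of 100 genes changed by 1 log2 unit and 84 of 100 changed by 2 were recovered. Of the genes left unchanged there, 9 were called. Far fewer genes were changed there than were called in the data, so recovery in the data may differ. Alternatives were the trend, filter, pseudocount, quantile normalization, groups fitted, a fold minimum, a replicate block and leaving out libraries.

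Members, gene lists and motifs were chosen with earlier results of these data known. Named with values from every library were all members called in a lung comparison, the 3 highest of each role in lung and the 5 highest in ECs; other members were named after their values were seen. Some genes of the set and lists enter the counts but are not reported here.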

Additional observations from a re-analysis of the deposited data

How the results depend on the processing

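The single-gene results counted here cover only the members picked by the rule for naming with values from every library. Other called genes named in the text, such as Cxcl2, Ccl11 and Mmp12, are not in this count. Among the members covered, no called gene changed direction under any alternative run. Of their single-gene results, 1478 kept their side of the threshold, 69 lost it and 17 gained it. In wild-type SuHx against normoxia, 13 chemokine genes were called, and 7 to 14 when 1 library was left out (7 without normoxia library 0, 7 without wild-type SuHx library 0 and 8 without wild-type SuHx library 2). All genes called there numbered 2052, 748 where the log2 change also had to reach 1, and 862 to 2380 without 1 library. In Ahr-KO against wild-type SuHx, 2 chemokine genes were called without any 1 library (2 to 2), and of all genes 76, 47 with no trend and 32 to 100 without 1 library. In Ahr-KO against normoxia, 4 became 2 with no trend, 2 with no filter, 2 with only the groups compared and 2 to 6 without 1 library; all genes were 1485, 659 at the log2 minimum of 1 and 721 to 1882 without 1 library. In ECs, 31 stayed within 28 to 32 without 1 library, and all genes fell from 8539 to 4409 at the log2 minimum and ran from 7239 to 8069 without 1 library. The cause of these shifts was not tested, beyond the fewer samples and stricter minimum by construction.

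Same-numbered libraries were not taken as pairs, because the labels do not tie them and their deviations from the group means correlated at -0.04 to 0.22, not above 0.1 in every pair. As a hint from the data, 6 of 9 pairs, among them all 3 of normoxia and Ahr-KO, correlated best with their own number. With a replicate block the chemokine calls were 14, 2, 4 and 31 in the order above, and all genes called were 3385, 82, 2171 and 8559. Values near or under about 5 signal units rest on few reads, which limits Cxcl11 in normoxic and in Ahr-KO lung and Ccl1, Ccr3, Ccr8 and Ccl28 throughout the lung.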
